A study of Mus musculus with 4 samples.

Results

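Tenocytes are the fibroblast-like cells of tendon, and here the name is used for cells of dystrophic muscle that met a rule on tendon transcripts. They were defined by raw counts of unique molecular identifiers (UMIs, 1 per captured RNA molecule): at least 1 UMI of Tnmd or Scx, at least 3 of Fmod, at most 1 of Pdgfra, and none of Cdh5 or Ptprc. The rule selected 752 of 31077 cells, 2.42% of all cells that passed the filters. Of these, 174 came from the mdx5cv quadriceps, 297 from the mdx5cv/Ccr2-/- quadriceps, 123 from the mdx5cv diaphragm and 158 from the mdx5cv/Ccr2-/- diaphragm. Whether all cells selected in the diaphragm are tenocytes cannot be decided from these libraries, since fewer of them carried further tendon markers, and the name stands there for cells that met the rule. Where 4 values are listed below, they stand in this order.

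The study profiled mononuclear cells of skeletal muscle by droplet-based 3′ single-cell RNA sequencing in mice aged 14 weeks. All mice carried the mdx5cv allele, a mutation of the dystrophin gene that models Duchenne muscular dystrophy, and no group had intact dystrophin. The groups were the quadriceps, a muscle of the thigh, and the diaphragm, the muscle of breathing, from mdx5cv mice and from mdx5cv/Ccr2-/- mice, which also lack the chemokine receptor that draws monocytes out of the blood. Each group was 1 library, and the labels do not say how many animals it pooled, their sex, or the genetic background of the Ccr2 deletion. Barcodes had to carry 500 UMIs and 300 genes or more, with mitochondrial transcripts at 15% or less, and those that did were 5238, 6811, 12582 and 6446 of 5839, 7492, 13175 and 7048 deposited barcodes. Over all cells Ccr2 stood at 248, 15.3, 132 and 8.85 CPM (the UMIs of a gene in the summed cells, scaled to a common total), lower in both libraries labelled Ccr2-/-.

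Tendon joins muscle to bone, or in the diaphragm to a central sheet of tendon, through parallel collagen fibrils that tenocytes lay down and maintain. Scx encodes scleraxis, the transcription factor that specifies tendon, and Mkx encodes a second factor needed for collagen fibril growth. Tnmd, the membrane glycoprotein tenomodulin, is a target of scleraxis, while fibromodulin (Fmod), keratocan (Kera) and chondroadherin (Chad) belong to the leucine-rich proteoglycans and proteins that bind collagen, and Thbs4, Comp and Cilp2 encode other glycoproteins of the tendon matrix.

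The promoters of 3 tendon genes whose levels set the libraries apart are shown first, each as the 250 bases before the RefSeq transcription start on the GRCm38.p6 mouse genome, 5′ to 3′ on the gene's strand. Capitals mark the E-box CANNTG, read on both strands, the core to which scleraxis and other basic helix-loop-helix factors bind. The Fmod window is chr1:134037004-134037253 on the plus strand, the Chad window chr11:94564797-94565046 on the plus strand, and the Angptl7 window chr4:148500463-148500712 on the minus strand.
Fmod: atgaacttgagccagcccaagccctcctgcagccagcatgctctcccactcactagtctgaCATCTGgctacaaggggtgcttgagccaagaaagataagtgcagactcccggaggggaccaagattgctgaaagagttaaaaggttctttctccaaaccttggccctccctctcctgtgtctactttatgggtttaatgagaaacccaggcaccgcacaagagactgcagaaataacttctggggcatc
Chad: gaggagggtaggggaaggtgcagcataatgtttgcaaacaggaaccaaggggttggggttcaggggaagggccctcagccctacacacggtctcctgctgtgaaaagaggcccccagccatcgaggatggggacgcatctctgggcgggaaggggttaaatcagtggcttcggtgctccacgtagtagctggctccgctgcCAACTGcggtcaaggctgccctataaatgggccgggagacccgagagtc
Angptl7: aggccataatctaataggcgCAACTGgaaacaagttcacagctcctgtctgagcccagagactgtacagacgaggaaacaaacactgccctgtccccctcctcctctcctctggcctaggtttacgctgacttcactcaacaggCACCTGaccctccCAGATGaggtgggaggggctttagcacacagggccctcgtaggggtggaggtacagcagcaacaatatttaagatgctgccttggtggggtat
Fmod held 1 E-box, of the form CATCTG, Chad held 1 of another form, and Angptl7, which encodes an angiopoietin-like secreted protein, held 3, of which 1 was CATCTG or its complement. Of 30 tendon genes, named either as tenocyte markers or for their level over fibroblasts, 20 had a promoter in the RefSeq table, and 10 of these held an E-box in this window. Of the 27025 promoter windows of the same length that were searched, 66% held one. CATCTG or its complement occurred in 4 of the 20 and in 14.5% of all windows searched.

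The members of all 4 libraries carried tendon transcripts, but those of the diaphragm carried fewer. Of the 5 defining markers Tnmd, Scx, Fmod, Cilp2 and Kera, at least 3 were detected in 96.6%, 88.6%, 51.2% and 73.4% of members. The first 3 of these chose the cells, so their levels are a description. The median number of Fmod UMIs per member was 48.5, 20, 7 and 13, against a minimum of 3 set by the rule. The median number of Tnmd UMIs was 15.5, 13, 5 and 7, and that of Scx was 2.5, 2, 0 and 1. Both Tnmd and Scx were detected in 73%, 70.4%, 27.6% and 44.9% of members. A single UMI of Pdgfra, the receptor that marks fibro-adipogenic progenitors, was present in 18.4%, 27.3%, 39% and 36.7% of members. The mdx5cv quadriceps thus lay at the tendon end of each of these measures and the mdx5cv diaphragm at the other, while members were of like depth, with a median of 9654.5, 10714, 8251 and 9779 UMIs per member.

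**Figure D1:**
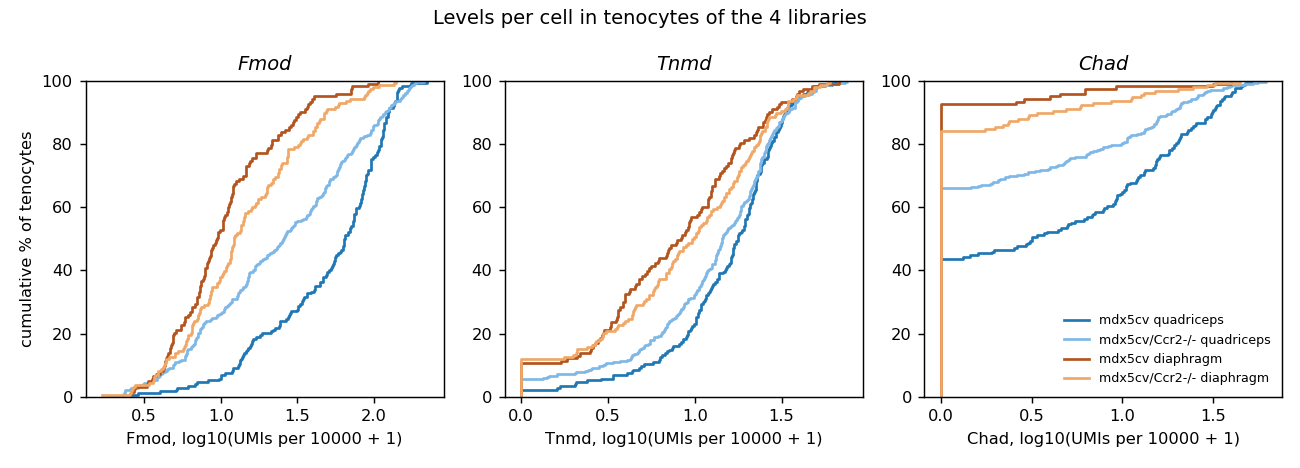
Cumulative percentage of tenocytes (vertical axis) by the level of Fmod, Tnmd and Chad per cell, in log10(UMIs per 10000 + 1), for the 4 libraries, 1 line each. Fmod and Tnmd took part in the choice of cells and Chad did not; the mdx5cv quadriceps line lies furthest to the right over most of its course in all 3 panels.

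Markers of other cell types were scored in the same cells. The summed level of 10 genes of fibro-adipogenic progenitors was 17068, 18006, 35840 and 29631 CPM in members and 33060, 32802, 46318 and 47377 CPM in fibroblasts of the same libraries (cells with at least 2 UMIs of Pdgfra and none of Tnmd, Scx, Cdh5 or Ptprc). All 10 genes were detected in every library, and their summed level in members was higher in the diaphragm than in the quadriceps. Most of this sum in each library was Dcn, Lum and Col3a1, which encode matrix proteins. The other genes did not all follow the sum. Pi16 was higher in the diaphragm, Cxcl14 was lower and Ly6a was not higher. The 9 markers of myofibres summed to 22.3, 73.9, 451 and 113 CPM. Of 8 endothelial markers at most 7 were detected, their sum was 15.7 to 23.8 CPM, and Cdh5 was at 0 by the rule. Immune markers summed to 93.1, 59.5, 216 and 35.8 CPM, with Ptprc at 0 by the rule. Of 7 mesothelial markers none had a UMI in the quadriceps, and their sum was 33.7 and 8.39 CPM in the diaphragm. The 7 smooth muscle markers, Tagln among them, summed to 483, 551, 220 and 468 CPM. The 7 muscle stem cell markers summed to 740, 597, 300 and 405 CPM, with Pax7 and Myf5 at 0 in both mdx5cv libraries. Most of this sum in each library was Chodl, which is named below among the genes higher in tenocytes than in fibroblasts. The part of these other transcripts in the results below was not tested.

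The cells just inside and just outside the rule differed by library. Members with 3 or 4 Fmod UMIs numbered 3, 24, 40 and 24, and their Cilp2 level was 0, 23.4, 22.4 and 44.4 CPM. Members with 10 or more Fmod UMIs numbered 159, 213, 37 and 95, and their Cilp2 level was 845, 680, 231 and 240 CPM. Cells that met the rule apart from having only 1 or 2 Fmod UMIs numbered 8, 35, 68 and 61, with Cilp2 at 35.5, 39.9, 11.3 and 16.3 CPM. Cells that met it apart from Pdgfra, with 2 UMIs or more, numbered 40, 148, 89 and 137, with Cilp2 at 214, 82, 40 and 62.9 CPM. Members near the Fmod threshold were few in the mdx5cv quadriceps and made up 32.5% of members in the mdx5cv diaphragm. For this reason the values of members with at least 10 Fmod UMIs, a limit chosen after seeing the data, are given beside the results that change with it.

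Much of the tendon RNA of the diaphragm lay outside the members. Members held 68.9%, 56%, 17.7% and 27.9% of all Tnmd UMIs of their library and 70.4%, 61.2%, 32.3% and 42.5% of the Fmod UMIs. Cells with at least 2 Pdgfra UMIs held 14.9%, 24.9%, 53% and 52.1% of Tnmd UMIs. For Thbs4 the members' share was 38.6%, 32.8%, 4.45% and 8.47%. In the quadriceps, then, Tnmd and Fmod transcripts were mostly those of members, whereas in the diaphragm most were in cells that the rule left out, above all in Pdgfra-positive cells.

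Tenocytes made up 3.32% of cells in the mdx5cv quadriceps (95% exact binomial interval 2.85 to 3.84), 4.36% in the mdx5cv/Ccr2-/- quadriceps (3.89 to 4.87), 0.978% in the mdx5cv diaphragm (0.813 to 1.17) and 2.45% in the mdx5cv/Ccr2-/- diaphragm (2.09 to 2.86). All intervals here and below are Clopper-Pearson intervals that cover counting error only. They leave out the variation between animals and between cells, and with 1 library per group no test between groups was possible. The diaphragm share was 0.294 of the quadriceps share in mdx5cv (95% interval 0.232 to 0.373) and 0.562 in mdx5cv/Ccr2-/- (0.46 to 0.684). The mdx5cv/Ccr2-/- share was 1.31 times the mdx5cv share in quadriceps (1.09 to 1.59) and 2.51 times in diaphragm (1.97 to 3.2). Counted per fibroblast instead of per cell, these ratios were 0.138 and 0.182 for muscle and 1.54 and 2.04 for genotype. A share depends on the other cells recovered, so it does not give the number of tenocytes in the muscle.

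The lower share in the diaphragm was present under every rule tried, but the genotype difference in quadriceps was not. With at least 10 Fmod UMIs the shares were 3.04%, 3.13%, 0.294% and 1.47%, a genotype ratio of 1.03 in quadriceps (0.835 to 1.27) and 5.01 in diaphragm (3.39 to 7.54). In another setting, cells with at least 2000 UMIs (4626, 6026, 11503 and 6051) were thinned to that depth before the rule was applied. The shares of these cells were 3.72%, 3.82%, 0.452% and 1.65%. The 2 quadriceps libraries thus held about equal shares of cells with abundant Fmod, and the excess in the mdx5cv/Ccr2-/- quadriceps consisted of cells with few Fmod UMIs. The larger share in the mdx5cv/Ccr2-/- diaphragm than in the mdx5cv diaphragm was present under each rule.

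**Figure D2:**
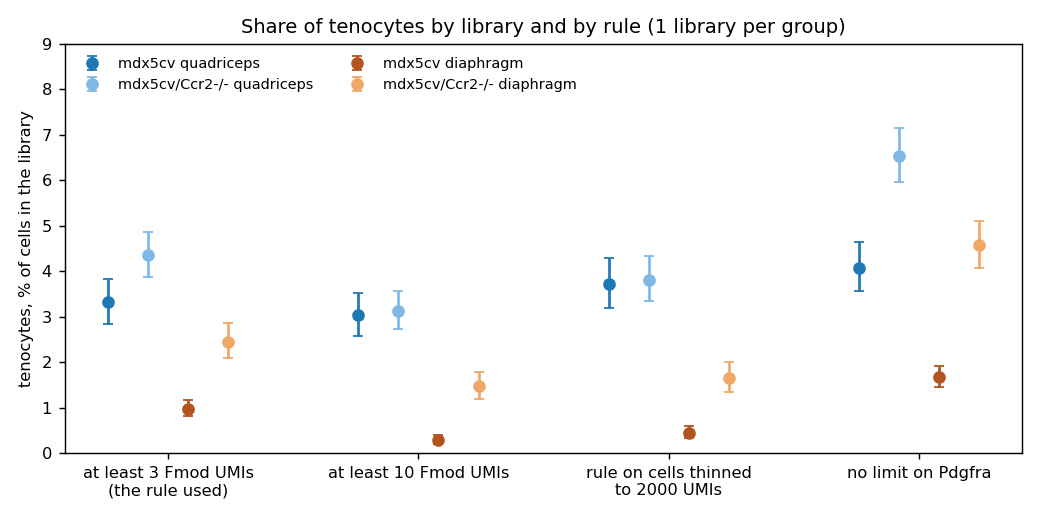
Share of tenocytes in each library (vertical axis, percent of cells) under the rule used and 3 other rules (horizontal axis), with exact 95% binomial intervals for counting error, 1 point per library. The diaphragm points lie below the quadriceps points of the same genotype under each rule, and the 2 quadriceps points coincide when at least 10 Fmod UMIs are required.

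Beyond the genes of the rule, tenocytes differed from fibroblasts of the same libraries in many matrix genes. Because the rule separated the 2 classes, these levels are a description without a test. Of 5516 measured genes outside the rule, 78 were at least 2-fold higher in tenocytes in all 4 libraries and 41 at least 2-fold lower. A gene counted as measured with a mean of at least 20 CPM and at least 100 UMIs over the 4 libraries, and folds were computed on CPM + 5. Of 16 tenocyte markers in the list drawn up for this work, 12 were measured and outside the rule. Among these 12, 9 were at least 2-fold higher in all 4 libraries, and 1, Htra3, which encodes a secreted serine protease, was lower. Htra3 stood at 49.5, 37.7, 194 and 136 CPM in tenocytes and at 56.6, 48.2, 436 and 520 CPM over all cells.

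Genes of the tendon matrix stood out over fibroblasts in each library. Cilp2, which encodes cartilage intermediate layer protein 2, stood at 789, 503, 101 and 176 CPM in tenocytes and at 1.63, 1.52, 1 and 1.53 CPM in fibroblasts. Chad stood at 863, 323, 56.4 and 113 CPM against at most 0.112 CPM in fibroblasts, and Kera at 709, 290, 27.3 and 48.7 CPM against at most 3.11 CPM. These 3 genes shared one order of libraries, with both quadriceps libraries above both diaphragm libraries. Comp, which encodes the oligomeric matrix protein that helps assemble collagen, stood at 1390, 982, 385 and 654 CPM against 128, 177, 64.7 and 111 CPM. Thbs4, which encodes thrombospondin 4 of tendon matrix, stood at 12799, 9862, 6051 and 7145 CPM against 1405, 2187, 2016 and 2371 CPM, and was detected in nearly all tenocytes after thinning to 2000 UMIs (100%, 98.9%, 97.6% and 98.7%; 3.72% to 6.64% of endothelial cells). Its level, like that of Comp, was higher in both quadriceps libraries than in both diaphragm libraries.

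Tenocytes also carried collagens that fibroblasts had little of. Col22a1, which encodes a collagen of the myotendinous junction, stood at 331, 266, 87.4 and 116 CPM and at no more than 0.261 CPM in fibroblasts. Col11a1, a minor fibrillar collagen that controls fibril diameter, stood at 678, 686, 253 and 431 CPM against 4.56, 33.5, 8.42 and 20.2 CPM. Col12a1, which encodes a fibril-associated collagen, stood at 1150, 1236, 602 and 943 CPM against 122, 291, 84.5 and 95.2 CPM. Of 20 collagens on the list 19 were measured. Together with Col11a2 and Col8a2, these 3 made up the 5 at least 2-fold higher than in fibroblasts in all 4 libraries. None was 2-fold lower in all 4. Of other genes in the lead, Chodl, which encodes the membrane lectin chondrolectin, stood at 715, 525, 233 and 300 CPM against 3.26, 10.3, 5.41 and 5.92 CPM. The transcription factor gene Mkx stood at 77.6, 49.9, 30.9 and 27.4 CPM against 0.977, 2.64, 7.95 and 7.22 CPM.

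Some transcripts of progenitor-type fibroblasts and some chemokines were lower in tenocytes. Of 16 genes on the list of tendon sheath and progenitors, 10 were measured. Of these, 3 (Ly6a, Cd34 and Clec3b) were at least 2-fold lower than in fibroblasts in all 4 libraries and none was higher. Over all 5516 measured genes outside the rule, 41 were lower and 78 higher by this measure. Ly6a, which encodes the surface antigen Sca-1, stood at 88.8, 39.7, 82.8 and 39.7 CPM against 886, 405, 788 and 604 CPM in fibroblasts. On the list of 26 chemokines and cytokines 11 were measured. Of these, 4 (Cxcl12, Cxcl14, Il33 and Csf1) were at least 2-fold lower than in fibroblasts in all 4 libraries and none was higher. Cxcl14 stood at 304, 146, 24.6 and 19.6 CPM against 1961, 1188, 301 and 254 CPM. The eotaxin gene Ccl11 was at 2.13, 0.85, 0 and 0 CPM in tenocytes and at 217, 94.2, 47.4 and 58 CPM in fibroblasts. Over all cells Ly6a stood at 474, 368, 503 and 465 CPM, Cxcl14 at 629, 346, 163 and 149 CPM and Ccl11 at 70.1, 33.7, 23.1 and 32.2 CPM, each above its level in tenocytes.

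**Figure D3:**
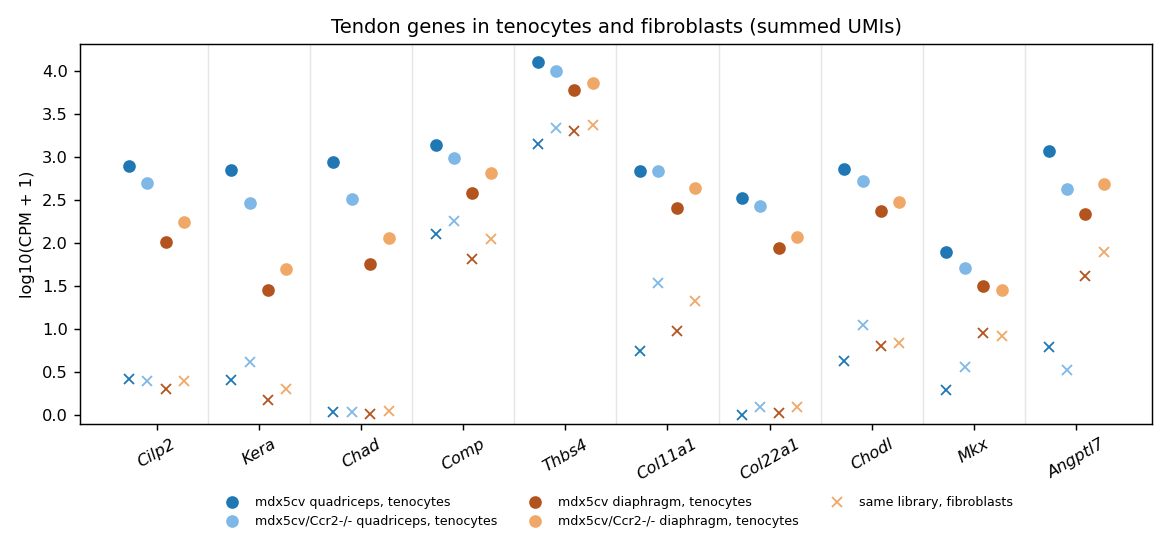
Levels of 10 tendon genes in tenocytes (circles) and in Pdgfra-positive fibroblasts of the same library (crosses), as log10(CPM + 1) of summed UMIs, 1 library per colour and no replicates. Tenocytes lie above fibroblasts for each gene in each library, and for Cilp2, Kera and Chad the quadriceps libraries lie above the diaphragm libraries.

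Members were not uniform in the genes they carried, even at equal depth. Thinning to 2000 UMIs left out 6, 14, 0 and 0 tenocytes below that depth. In the thinned cells Chad was detected in 46.4%, 24%, 3.25% and 10.1% of tenocytes and in at most 0.147% of endothelial cells. The median depth of this background class was 2865 to 4814 UMIs before its shallower cells were left out. Without thinning the shares with Chad were 56.3%, 34%, 7.32% and 15.8%. In the mdx5cv quadriceps, Chad was found in 65.7% of the 70 tenocytes with a Kera UMI and in 32.7% of the 98 without one. In the mdx5cv/Ccr2-/- quadriceps these shares were 55.3% of 76 and 12.6% of 207. Chad and Kera thus occurred more often in the same quadriceps cells. Col22a1 went the other way and was found in 17.9% of tenocytes with a Chad UMI and 36.7% without in the mdx5cv quadriceps, and in 10.3% and 25.1% in the mdx5cv/Ccr2-/- quadriceps. In the mdx5cv/Ccr2-/- diaphragm the order for Col22a1 was the reverse, with 31.2% of 16 tenocytes with Chad and 7.75% of 142 without. The mdx5cv diaphragm had 4 tenocytes with Chad after thinning, too few to describe.

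The muscles differed in more tenocyte genes than the genotypes did. Of 5520 measured genes, 215 (3.89%) were more than 2-fold higher in the diaphragm than in the quadriceps of mdx5cv and 165 (2.99%) more than 2-fold lower. In mdx5cv/Ccr2-/- 111 (2.01%) were higher and 108 (1.96%) lower. These 2 comparisons use separate pairs of libraries. They shared 73 higher genes, which are 34% of the first list and 65.8% of the second, and 79 lower genes (Fmod, a gene of the rule, among them), 47.9% and 73.1% of the lists, and no gene was past 2-fold in opposite directions.

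Genes that carry body position separated the tenocytes of the 2 muscles. Hoxc10, a homeobox gene of the hindlimb region (ENSMUSG00000022484, chromosome 15, 102966796 to 102971893, GENCODE vM21), stood at 61.2 and 64.3 CPM in quadriceps tenocytes, and no UMI was found in the diaphragm. Against a floor of 3 UMIs per library, it was at least 22.4-fold higher in the quadriceps of mdx5cv and at least 38.3-fold higher in that of mdx5cv/Ccr2-/-. Hoxc9, its neighbour in the cluster, stood at 54.8, 39.9, 0 and 0 CPM, and Shox2, a homeobox gene of the limb skeleton, at 64.4, 79.9, 3.64 and 3.36 CPM. For all 3, both quadriceps libraries stood above both diaphragm libraries, and how many of all measured genes had such an order was not counted. Fibroblasts of the same libraries had like levels, with Hoxc10 at 49.7, 69.6, 0 and 0.0372 CPM and Shox2 at 69.7, 86.3, 3.14 and 3.02 CPM. Gata6, which encodes a zinc finger transcription factor, had the reverse order at 1.06, 3.12, 49.2 and 43.6 CPM, 46.2 times higher in the diaphragm of mdx5cv (95% interval 12.2 to 391, on 2 UMIs in the quadriceps) and 14 times in mdx5cv/Ccr2-/- (7.41 to 29.2). Fibroblasts had Gata6 at 3.01, 5.19, 36.4 and 50.4 CPM.

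Wif1 and Mstn, which both encode secreted proteins, were concentrated in quadriceps tenocytes. Wif1 encodes an inhibitor that binds Wnt proteins, and Mstn encodes myostatin, a ligand of the transforming growth factor beta family that restrains muscle growth and is also made in tendon. Wif1 stood at 295, 118, 0 and 1.12 CPM, at least 108-fold higher in the quadriceps of mdx5cv while in mdx5cv/Ccr2-/- the diaphragm level was 0.00944 of that in quadriceps (0.00114 to 0.0343, on 2 UMIs). Members held 88.4% and 69.4% of all Wif1 UMIs of the quadriceps libraries, although they held 3.42% and 5.43% of all UMIs. Mstn stood at 131, 64, 0 and 11.2 CPM, at most 0.0334 CPM in fibroblasts, and members held 58.3% and 40.4% of its UMIs in the quadriceps. Both genes were higher in the mdx5cv quadriceps than in the mdx5cv/Ccr2-/- quadriceps, Mstn with a genotype ratio of 0.489 (0.407 to 0.589).

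Some other Wnt and transforming growth factor modulators were higher in the diaphragm and some lower. Sfrp1, which encodes a secreted Wnt antagonist, stood at 3.72, 60.6, 287 and 214 CPM in tenocytes. Fst, which encodes follistatin, an inhibitor of activin and myostatin, stood at 2.66, 16.7, 143 and 130 CPM. Both were low in the mdx5cv quadriceps, where fibroblasts had 203 CPM of Sfrp1 and 185 CPM of Fst and all cells together 73.4 and 64.7 CPM. Of the 14 measured genes on the list of BMP, GDF and Wnt modulators, 5 were past 2-fold higher and 3 past 2-fold lower in the diaphragm of mdx5cv, with a median log2 ratio of 0.32, against 0.04 over all measured genes. In mdx5cv/Ccr2-/- the counts were 5 and 1, with a median of 0.29 against 0. Bmp4 and Sfrp4 were among the higher genes in both, and Wif1 among the lower, with Chrdl1 and Ccn5 also lower in mdx5cv. Of 20 measured genes of TGF-beta signalling, 4 were past 2-fold higher and 5 lower in the diaphragm of mdx5cv, with a median of -0.15, and 3 and 1 in mdx5cv/Ccr2-/-, with a median of 0.01. Over all 5520 measured genes 3.89% were higher and 2.99% lower in mdx5cv, and 2.01% and 1.96% in mdx5cv/Ccr2-/-. With at least 10 Fmod UMIs the TGF-beta list had 4 and 4 in mdx5cv (median 0.03) and 4 and 1 in mdx5cv/Ccr2-/- (median 0.32). The list of BMP, GDF and Wnt modulators then had 4 and 3 (median 0.18) and 4 and 1 (median 0.33). Over all members Sfrp2 was higher in the diaphragm of both genotypes. Among members with at least 10 Fmod UMIs its ratio in mdx5cv was 0.677 (0.498 to 0.903) in place of 2.1.

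Pi16, which encodes a peptidase inhibitor of universal fibroblasts, stood at 84.6, 76.2, 514 and 513 CPM. Pi16 was thus higher in both diaphragm libraries than in both quadriceps libraries. Fibroblasts differed the same way, with Pi16 at 180, 129, 722 and 940 CPM. Cyp26a1, which encodes the enzyme that degrades retinoic acid, stood at 3.19, 6.23, 36.4 and 45.9 CPM in tenocytes. Fibroblasts had little of it, at 0.0814, 0.319, 1.64 and 1.53 CPM. Members held 16.1% of its UMIs in the mdx5cv diaphragm and 27.6% in the mdx5cv/Ccr2-/- diaphragm, so most lay in other cells. Pdlim3, which encodes an actin-associated LIM protein, stood at 0.532, 1.98, 79.2 and 59.3 CPM against 1.14, 0.958, 15.2 and 23.8 CPM in fibroblasts and 6.06, 9.65, 23.3 and 28.3 CPM over all cells.

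Most tenocyte markers were lower in diaphragm tenocytes of mdx5cv, and fewer in those of mdx5cv/Ccr2-/-. Of 12 measured tenocyte markers outside the rule, 10 were past 2-fold lower in the diaphragm of mdx5cv and 1, Htra3, higher, with a median log2 ratio of -1.95. In mdx5cv/Ccr2-/- 4 were past 2-fold lower and 2 (Ptgis and Htra3) higher, with a median of -0.71. Over all 5520 measured genes 2.99% were lower and 3.89% higher in mdx5cv, and 1.96% and 2.01% in mdx5cv/Ccr2-/-. When at least 10 Fmod UMIs were required, 5 (Cilp2, Kera, Chad, Ptn and Angptl7) were past 2-fold lower and 2 higher in mdx5cv, with a median of -0.94, and 4 and 1 in mdx5cv/Ccr2-/-, with a median of -0.64. Kera was 26 times lower in mdx5cv (diaphragm over quadriceps 0.0385, 0.0259 to 0.0553) and 5.97 times lower in mdx5cv/Ccr2-/- (0.168, 0.133 to 0.209). Chad was 15.3 times and 2.86 times lower. Among members with at least 10 Fmod UMIs the difference was smaller in mdx5cv, with Kera at 770, 404, 75 and 78.7 CPM and Chad at 930, 455, 186 and 181 CPM, and quadriceps cells were still higher in both genotypes. S100a4, which encodes a calcium-binding protein of motile fibroblasts, stood at 1271, 846, 82.8 and 111 CPM, and Igfbp5, which encodes an IGF-binding protein, at 1204, 549, 124 and 102 CPM. Both genes were thus higher in both quadriceps libraries than in both diaphragm libraries. Over all cells S100a4 stood at 1045, 721, 329 and 190 CPM.

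Leucine-rich proteoglycans divided, some higher and some lower in the diaphragm. Decorin (Dcn), the proteoglycan that regulates collagen fibril assembly, stood at 9464, 5979, 16311 and 13828 CPM, and lumican (Lum) at 506, 853, 2641 and 2129 CPM. Epyc, which encodes epiphycan of cartilage, stood at 3.19, 2.55, 14.6 and 60.4 CPM. Of 12 measured members of this list outside the rule, 5 were past 2-fold higher and 3 lower in the diaphragm of mdx5cv, with a median of 0.52, and 4 and 2 in mdx5cv/Ccr2-/-, with a median of 0.62. Over all 5520 measured genes 3.89% were higher and 2.99% lower in mdx5cv, and 2.01% and 1.96% in mdx5cv/Ccr2-/-. Dcn was past 2-fold in mdx5cv/Ccr2-/- alone, with ratios of 1.72 and 2.31. Fibroblasts had a median of 0.68 for the same genes in both genotypes. Kera and Chad were among the lower genes in both comparisons, together with Prelp in mdx5cv. Among members with at least 10 Fmod UMIs 4 of the list were past 2-fold higher and 2 (Kera and Chad) lower in each genotype. The medians were then 0.33 in mdx5cv and 0.5 in mdx5cv/Ccr2-/-. Prelp then had a ratio of 0.681 (0.595 to 0.776) in mdx5cv.

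**Figure D4:**
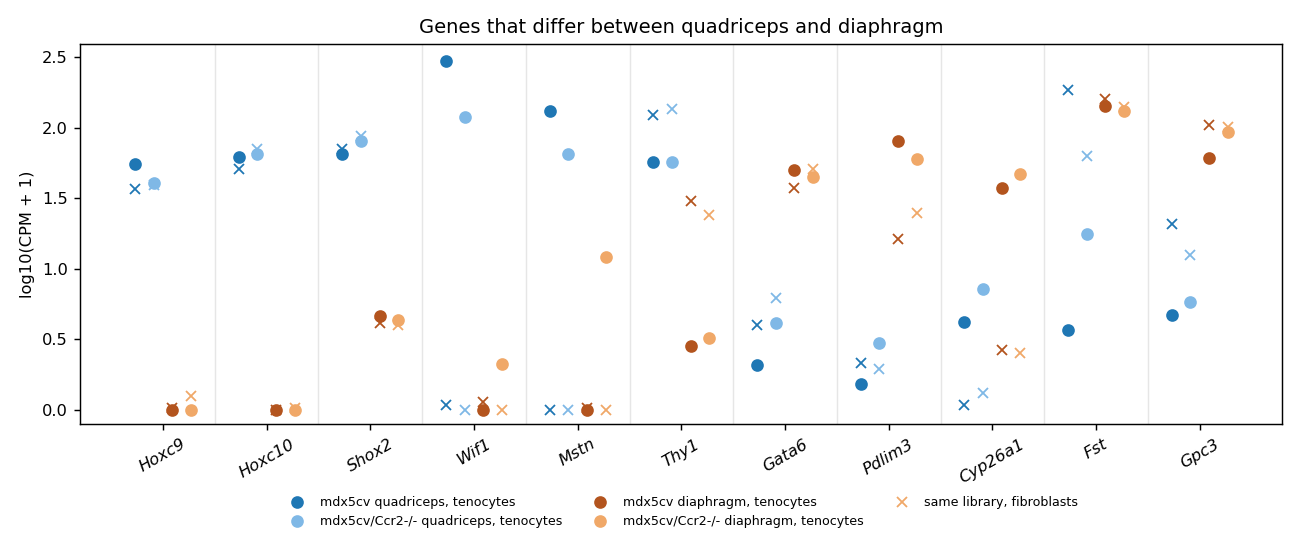
Levels of 11 genes that differed between the muscles in tenocytes (circles) and in fibroblasts of the same library (crosses), as log10(CPM + 1), 1 library per colour and no replicates. Hoxc9, Hoxc10, Shox2 and Thy1 were higher in the quadriceps in both cell classes, Wif1 and Mstn were high in quadriceps tenocytes with fibroblasts near 0, and Gata6, Pdlim3 and Gpc3 were higher in the diaphragm in both classes.

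Chaperone and immediate early transcripts were higher in the diaphragm of mdx5cv and less so in that of mdx5cv/Ccr2-/-, a difference that was not tested. All 15 measured heat shock chaperone genes were higher in the diaphragm of mdx5cv, 9 of them past 2-fold, with a median log2 ratio of 1.14. In mdx5cv/Ccr2-/- 12 were higher, 2 of them past 2-fold, with a median of 0.6. Over all 5520 measured genes, 3.89% were past 2-fold higher in the diaphragm of mdx5cv, with a median of 0.04. In mdx5cv/Ccr2-/- 2.01% of all measured genes were higher and 1.96% lower, with a median of 0. Hspa1a, which encodes an inducible Hsp70, stood at 226, 152, 914 and 785 CPM. Of 19 measured immediate early genes, 10 were past 2-fold higher in the diaphragm of mdx5cv, with a median of 1.24. In mdx5cv/Ccr2-/- 1 (Atf3) was past 2-fold higher and 1 (Egr3) lower, with a median of 0.52. Jun stood at 293, 471, 1328 and 922 CPM. Fibroblasts had medians of 1.49 in mdx5cv and 1.2 in mdx5cv/Ccr2-/- for the same immediate early genes, the latter above that of tenocytes, and of 0.78 and 0.55 for the chaperones. The mdx5cv diaphragm was the highest of the 4 libraries for both Hspa1a and Jun.

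Between genotypes, more genes were past 2-fold in quadriceps tenocytes than in diaphragm tenocytes, but this order depended on the rule for cells and on the filter. In quadriceps 67 of 5520 measured genes (1.21%) were more than 2-fold higher in mdx5cv/Ccr2-/- and 29 (0.525%) more than 2-fold lower. In diaphragm 18 (0.326%) were higher and 28 (0.507%) lower. The order was the reverse among members with at least 10 Fmod UMIs, with 50 higher and 19 lower in quadriceps and 122 and 65 in diaphragm. With Pdgfra at 0 the counts were 59 and 23 in quadriceps and 50 and 34 in diaphragm, and with no filter on levels 128 and 66 against 92 and 109. The genotype comparisons in the 2 muscles use separate pairs of libraries, and they shared 2 higher genes (2.99% of the quadriceps list and 11.1% of the diaphragm list) and 2 lower genes (6.9% and 7.14%). Each library enters 1 comparison of genotype and 1 of muscle, so these 2 kinds of comparison share their libraries.

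The shared higher genes were Ifi202b and Ccl2. Ifi202b, an interferon-inducible gene of the Aim2-like family, stood at 0, 67.7, 0 and 78.8 CPM in tenocytes, at least 42.4-fold higher in the quadriceps and at least 28.9-fold in the diaphragm against 3 UMIs per library. Over all cells of the libraries it had 1, 6735, 9 and 9903 UMIs, so its difference was not limited to tenocytes. Ccl2, which encodes a monocyte-attracting chemokine and ligand of CCR2, stood at 20.7, 91.5, 20 and 63.8 CPM in tenocytes, with ratios of 4.41 in quadriceps (3.16 to 6.32) and 3.18 in diaphragm (2 to 5.28). In fibroblasts Ccl2 had the opposite order, at 591, 171, 142 and 103 CPM, with ratios of 0.29 and 0.724. Among members with at least 10 Fmod UMIs Ccl2 stood at 7.52, 66.5, 0 and 72.4 CPM, so the order in tenocytes was the same there. Over all cells Ccl2 stood at 386, 123, 149 and 133 CPM, with mdx5cv as in fibroblasts above mdx5cv/Ccr2-/-.

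The shared lower genes were Mmp3 and Fdps. Mmp3, which encodes stromelysin 1, a protease of matrix turnover, stood at 95.2, 32.9, 88.3 and 35.2 CPM. Fdps encodes farnesyl diphosphate synthase of the sterol pathway and stood at 93.6, 44.2, 58.3 and 24 CPM. Other genes of sterol synthesis named by the same rule had the same order, with Idi1 at 63.3, 25.2, 33.7 and 14.5 CPM and Cyp51 at 80.3, 27.8, 50.1 and 25.2 CPM. Fibroblasts had Fdps at 139, 54.5, 45.2 and 25.6 CPM. In the diaphragm the lower sterol genes were not found among members with at least 10 Fmod UMIs, where the ratio was 0.981 for Fdps (0.431 to 2.51) and 0.988 for Cyp51 (0.492 to 2.15), whereas in quadriceps it was 0.415 and 0.326.

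In the quadriceps, Kera, Chad, Angptl7 and Prg4 were lower in mdx5cv/Ccr2-/-, and some collagens and matrix glycoproteins were higher. Of 12 measured tenocyte markers outside the rule, 3 (Kera, Chad and Angptl7) were past 2-fold lower and 1 (Ptn) past 2-fold higher, with a median log2 ratio of -0.62 against 0.09 over all measured genes. Chad had a ratio of 0.374 (0.346 to 0.404), Kera 0.41 (0.377 to 0.445) and Angptl7, at 1164, 419, 216 and 488 CPM, 0.36 (0.336 to 0.384). Among members with at least 10 Fmod UMIs these ratios were 0.489, 0.525 and 0.469, and the list's median was -0.33. Col11a1 had a ratio of 1.01. Of 31 measured tendon matrix glycoproteins, 5 (Eln, Postn, Spon1, Vcan and Clec3b) were past 2-fold higher and 1 (Prg4) lower, with a median of 0.14. Over all measured genes 1.21% were past 2-fold higher and 0.525% lower. Prg4, which encodes lubricin, the lubricant of sliding tendon surfaces, stood at 1615, 460, 825 and 1080 CPM, with a ratio of 0.285 (0.268 to 0.302) over all members and 0.36 (0.338 to 0.384) in those with at least 10 Fmod UMIs. These genes were thus lower in mdx5cv/Ccr2-/- also among the cells with abundant Fmod, by smaller factors.

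Of 19 measured collagens, 16 were higher in the mdx5cv/Ccr2-/- quadriceps, 4 of them past 2-fold (Col3a1, Col5a1, Col6a3 and Col14a1), with a median log2 ratio of 0.52. Over all 5520 measured genes 1.21% were past 2-fold higher in this comparison, with a median of 0.09. Col3a1, a fibrillar collagen of remodelling tissue, stood at 3714, 8903, 11892 and 8930 CPM, with a ratio of 2.4 (2.34 to 2.46). Periostin (Postn), a matrix protein of healing tissue, stood at 2253, 5619, 4663 and 4868 CPM, and elastin (Eln) at 63.3, 263, 434 and 400 CPM. The mdx5cv quadriceps was the library set apart by these genes, lower than each of the others. Fibroblasts of the quadriceps had a median of 0.54 for the same collagens. Among members with at least 10 Fmod UMIs 1 collagen (Col14a1) was past 2-fold higher, the median was 0.46, and the ratio was 1.89 for Col3a1, 1.94 for Postn and 4.93 for Eln. Mmp13, which encodes a collagenase, stood at 19.1, 79.6, 0 and 0 CPM, a ratio of 4.16 in quadriceps (2.93 to 6.06).

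In the diaphragm more tenocyte markers were higher than lower in mdx5cv/Ccr2-/-. Of the 12 measured outside the rule, 8 were higher and 4 lower in mdx5cv/Ccr2-/-, with a median log2 ratio of 0.57, and 1 (Angptl7) was past 2-fold higher and 1 (Ptn) past 2-fold lower. Over all 5520 measured genes 0.326% were past 2-fold higher and 0.507% lower, with a median of 0.04. Chad had a ratio of 2 (1.5 to 2.71) and Comp 1.7 (1.52 to 1.9). Among members with at least 10 Fmod UMIs the ratios were 0.974 for Chad (0.729 to 1.32), 1.05 for Kera (0.667 to 1.71) and 1.03 for Comp (0.893 to 1.19). Angptl7 had 1.29 (1.08 to 1.55), Thbs4 1.18 (1.12 to 1.23) and Col11a1 1.22 (1.01 to 1.47). Of the 12 markers 6 were then higher and 6 lower, with a median of 0, none past 2-fold higher and 1 (Ptn) lower. Cells with abundant Fmod are 30.1% of members in mdx5cv and 60.1% in mdx5cv/Ccr2-/-. The collagens had a median log2 ratio of -0.05 in the diaphragm, and none of the 19 was past 2-fold.

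Other genes set the 2 diaphragm libraries apart, also among cells with abundant Fmod. Tagln, which encodes transgelin of contractile cells, stood at 226, 293, 79.2 and 264 CPM, a diaphragm ratio of 3.33 (2.65 to 4.24), and 5.24 (3.3 to 8.82) with at least 10 Fmod UMIs. The smooth muscle markers given above, which include it, were also lowest in the mdx5cv diaphragm, and their part in this result was not tested. Epyc had a ratio of 4.15 (2.44 to 7.51), and 2.77 (1.19 to 7.87) with at least 10. Spon2, which encodes a secreted matrix protein, stood at 169, 108, 33.7 and 3.91 CPM, a ratio of 0.116 (0.0437 to 0.264), and 0.0647 (0.0119 to 0.232) with at least 10, and over all cells it stood at 17.6, 27.5, 4.95 and 8.85 CPM. Tagln and Epyc were thus higher and Spon2 lower in mdx5cv/Ccr2-/- under both limits. The higher limit left 37 and 95 diaphragm cells in mdx5cv and mdx5cv/Ccr2-/-. Those cells held 19 and 330 UMIs of Tagln, 6 and 55 of Epyc, and 14 and 3 of Spon2. Acta1, which encodes skeletal muscle actin, stood at 2.13, 7.65, 145 and 25.7 CPM over all members and at 2.31, 8.52, 27 and 10.9 CPM in members with at least 10 Fmod UMIs, where the diaphragm ratio was 0.402 (0.156 to 1.08) in place of 0.178. Cd74, the invariant chain of antigen presentation, stood at 16, 15, 122 and 6.15 CPM, and at 16.2, 6.9, 33 and 4.53 CPM with at least 10 Fmod UMIs, with diaphragm ratios of 0.0504 and 0.137. Over all cells Acta1 stood at 27.9, 107, 89.5 and 31.6 CPM and Cd74 at 2474, 1659, 2506 and 1115 CPM, and what RNA from other cells adds to their levels in members was not tested.

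Immediate early and chaperone genes were lower in the mdx5cv/Ccr2-/- diaphragm. All 15 measured chaperones had ratios below 1, 3 of them past 2-fold, with a median log2 ratio of -0.4, and 17 of 19 immediate early genes did, 2 of them past 2-fold, with a median of -0.52. Over all 5520 measured genes 0.507% were past 2-fold lower in this comparison, with a median of 0.04. Fibroblasts had medians of -0.45 for the same chaperones and -0.54 for the same immediate early genes. In quadriceps the medians in tenocytes were 0.14 and 0.18, against 0.09 over all measured genes. Of 8 measured genes of MHC class I presentation, all were lower in the mdx5cv/Ccr2-/- quadriceps and none past 2-fold, with a median of -0.34, and fibroblasts had -0.35. Of 11 measured type I interferon response genes, 1 (Isg15) was past 2-fold higher in quadriceps and none in diaphragm. Over all measured genes 1.21% were past 2-fold higher in quadriceps and 0.326% in diaphragm.

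**Figure D5:**
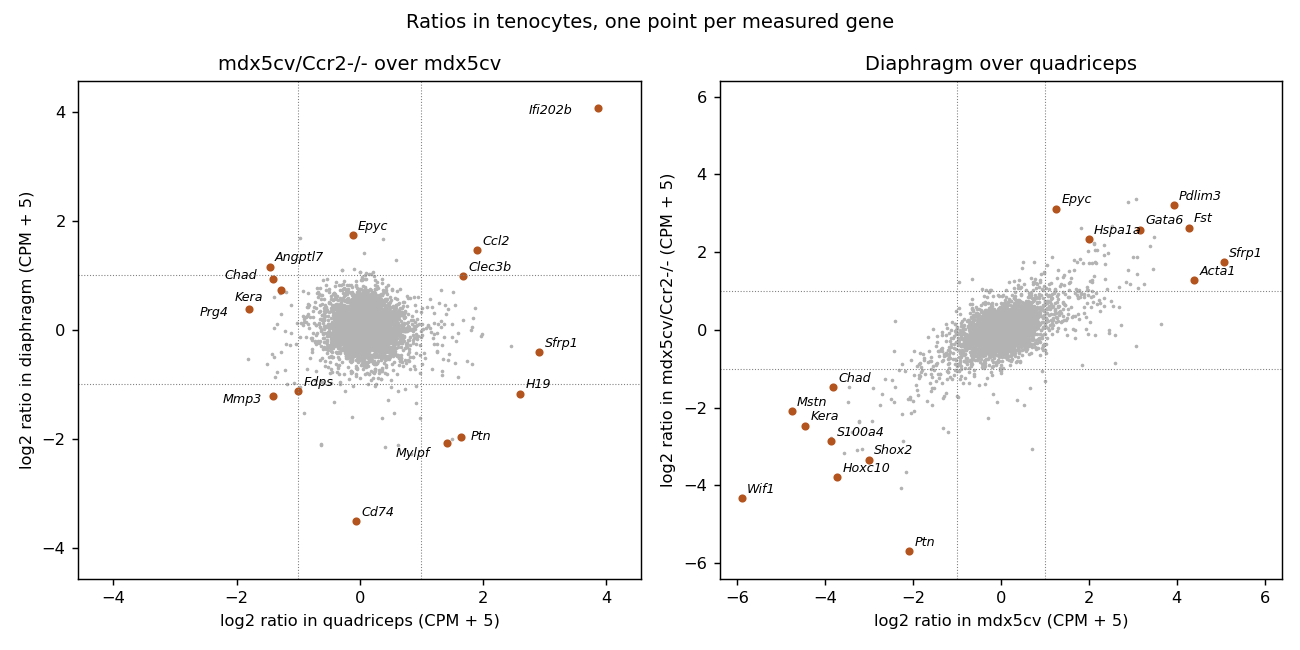
Log2 ratios of CPM + 5 in tenocytes, 1 point per measured gene, for mdx5cv/Ccr2-/- over mdx5cv in quadriceps (horizontal) and diaphragm (vertical) on the left, and for diaphragm over quadriceps in each genotype on the right, with dotted lines at 2-fold and no replicates. Ifi202b and Ccl2 lie past 2-fold in both muscles, Angptl7, H19, Mylpf and Ptn lie past 2-fold in opposite directions, and Wif1, Mstn, Hoxc10 and Shox2 lie low on both axes of the right panel.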

How the data were processed

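Single-cell RNA libraries of 4 groups, 1 each, were analysed. The deposited matrices hold UMI counts, not normalized, per the file headers and values. Cell Ranger 6.1.2 and build mm10 are named in the submitters' processing notes. No source used here gives the annotation release or how the authors called cells. The libraries held 56399477, 66330555, 92189580 and 67356144 UMIs over 32285 genes.

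Tenocytes, fibroblasts and endothelial cells were selected by UMI rules, and their UMIs were summed per library (1880257, 3529754, 1098629 and 1788212 in tenocytes) and scaled to CPM. Ratios carry exact conditional binomial (Clopper-Pearson) 95% intervals, which take each UMI as independent. A gene counted as called when its log2 ratio with a pseudocount of 5 CPM passed 2-fold. No count model was run, since each group had 1 library. Folds against 0 use a floor of 3 UMIs per library. Doublets were not removed; Scrublet in scanpy 1.11.5 ranked 6, 18, 6 and 1 tenocytes among its highest scores (0.8% per 1000 barcodes). Tenocytes whose barcode occurs in another library numbered 1, 1, 0 and 0. Rule members and gene lists were chosen with earlier results of these data known. Named genes were the rule genes and tenocyte markers, the 20 highest and 10 lowest over fibroblasts in all 4 libraries (at 50 CPM or more in either class), for genotype and for muscle the 10 highest and 10 lowest of those past 1.5-fold in both pairs of libraries and the 5 highest and 5 lowest in each pair, and examples of the lists; other genes named were chosen after their values were seen. The scripts were tested on simulated data. Alternatives covered the rule, scaling (edgeR 4.0.16), filter and pseudocount. Software was Python 3.11.15, numpy 2.4.6, scipy 1.17.1 and pandas 2.3.3. Gene positions are from GENCODE vM21 (GRCm38).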

Additional observations from a re-analysis of the deposited data

Results flagged for a closer look

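In 5 of 5520 measured genes the genotype ratio in tenocytes was past 2-fold in opposite directions in the 2 muscles. The difference between muscles was not tested, since each group had 1 library. Ptn, which encodes the growth factor pleiotrophin, stood at 465, 1471, 106 and 23.5 CPM in the order given above, which is log2 ratios of 1.65 in quadriceps and -1.96 in diaphragm, a difference of 3.61. With at least 10 Fmod UMIs the log2 ratios were 1.17 and -3.14. Fibroblasts had the same order, at 145, 909, 18.5 and 11.1 CPM. H19, an imprinted long noncoding RNA, stood at 34.6, 235, 59.2 and 23.5 CPM, a difference of 3.77, and at 23.1, 79.5, 15 and 7.24 CPM in members with at least 10 Fmod UMIs, while over all cells it stood at 71.4, 158, 86.7 and 57.7 CPM. Angptl7 stood at 1164, 419, 216 and 488 CPM, a difference of -2.62. Myl1 and Mylpf, which encode myosin light chains of fast muscle fibres, stood at 1.6, 13.6, 77.4 and 15.7 CPM and at 5.32, 22.4, 81.9 and 15.7 CPM, with differences of 3.49 and 3.48. With at least 10 Fmod UMIs the log2 ratio in diaphragm was 0.37 for Angptl7, -0.71 for H19, -0.21 for Myl1 and -0.18 for Mylpf, so of the 5 genes Ptn alone was then past 2-fold in opposite directions. Over all cells Myl1 stood at 17.3, 92, 32 and 16.7 CPM. Myofibre markers among members were likewise highest in the mdx5cv diaphragm and lowest in the mdx5cv quadriceps (22.3, 73.9, 451 and 113 CPM), and their part in the result was not tested.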

How the results depend on the processing

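Values were recomputed with 1 choice changed at a time. Each result was scored once for each changed choice. Of the scores for counts of genes, 37 stayed within 1.5 times and 11 did not. For 147 log2 ratios of named genes past 2-fold, 1177 scores stayed within the counting interval or near the reported value. Of the others, 290 left it and 3 changed sign. The choices were unlike in this. All 147 ratios stayed with edgeR scaling or a pseudocount of 1 CPM, whereas with at least 10 Fmod UMIs 64 stayed, 80 left and 3 changed sign. The tenocyte share ratio of genotypes in quadriceps was 1.03 with at least 10 Fmod UMIs (a limit chosen after seeing the data), 1.6 with no limit on Pdgfra and 1.03 with cells thinned before selection. In diaphragm it was 5.01 with at least 10 Fmod UMIs and 3.66 with thinning. The muscle ratio in mdx5cv was 0.202 with at least 5 and 0.0969 with at least 10 Fmod UMIs, 0.22 with Pdgfra at 0, 0.412 with no limit on Pdgfra and 0.122 with thinning. In mdx5cv/Ccr2-/- it was 0.7 with no limit on Pdgfra and 0.433 with thinning. Genes past 2-fold with no filter and with a mean of at least 50 CPM numbered 194 and 53 for genotype in quadriceps (96 as reported), 201 and 17 in diaphragm (46), 858 and 200 for muscle in mdx5cv (380), and 435 and 112 in mdx5cv/Ccr2-/- (219); these filters test more or fewer genes. The diaphragm genotype count was 73 with a pseudocount of 1 CPM, 84 with Pdgfra at 0 and 187 with at least 10 Fmod UMIs, which leaves 37 and 95 cells. The share of higher genes there was 39.1% as reported, 59.5% with Pdgfra at 0, and 51.7% and 65.2% with at least 5 and 10 Fmod UMIs. Log2 ratios that changed sign with at least 10 Fmod UMIs were -0.27 for Cxcl9 and -0.43 for Tnnc2 between muscles in mdx5cv, and 0.61 for Tnnc2 between genotypes in diaphragm. The median of fibrocartilage genes between genotypes in diaphragm was -0.19 with Pdgfra at 0 and -0.09 with at least 5 Fmod UMIs. The cause of these changes was not tested. No paired analysis was possible because each group has 1 library, and no library could be left out for the same reason. Genes at a few CPM rest on few UMIs, and a difference there was often not detectable at this depth.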
